A study of Homo sapiens with 4 samples.

Results

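The 10 genes described here encode complement components and regulators, out of 60662 genes and transcripts in the deposited count table. They were chosen by name, as the rows of that table with the symbols C3, CFP, C1QA, C1QB, C1QC, CFB, CFD, CD46, CD55 and CD59, and each symbol matched 1 row. RNA was sequenced from U937, an established human myeloid line derived from a histiocytic lymphoma. One group had been cultured for 72 h with PMA (phorbol 12-myristate 13-acetate) at 10 nM, and the labels call the product macrophage-like cells. PMA mimics diacylglycerol and so switches on protein kinase C. The other group was left without PMA for the same 72 h, and the labels name no vehicle. Each group holds 2 libraries, 1 from each of 2 lots, so every value rests on 1 cell line, and fewer cells expressing a gene cannot be told apart from less RNA per cell.

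Complement is a cascade of plasma proteins that tags particles for uptake and forms pores in membranes. The classical pathway starts when C1q, assembled from the chains of C1QA, C1QB and C1QC, binds antibody or a surface. The alternative pathway amplifies on any surface through a convertase built from C3 and factor B (CFB), cut by factor D (CFD) and stabilised by properdin (CFP). Host cells carry CD46, a cofactor for cleavage of C3b and C4b, CD55, which speeds decay of the convertases, and CD59, which blocks assembly of the membrane attack complex. The liver makes most plasma complement, whereas C1q and properdin come largely from myeloid cells, and macrophages secrete C3 locally.

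With PMA, 3 of the 10 genes rose and 0 fell: C3, CFP and C1QC. C1QC was at 0 in both untreated libraries, so the filter on low counts fixed its direction. CFD, C1QA, CD46 and CD55 had higher levels in both PMA libraries than in both untreated ones but did not pass the test. Of all genes tested, 31.0% had both PMA libraries above both untreated ones. CFB was listed at 0 in all 4 libraries, and C1QB and CD59 had too few counts to be tested. Genes were called at an adjusted p under 0.05 by the quasi-likelihood test of edgeR, with Benjamini-Hochberg values over all 16451 genes past the filter on low counts. It called 4.29% of those genes higher and 2.02% lower. DESeq2 called 6 of the 10 genes higher (the same 3 with CFD, CD46 and CD55), beside 13.0% of all genes tested, and 10.3% of all genes lower. Among the 10 genes, the count of lower genes was also 0 at an unadjusted p under 0.05, with DESeq2 and with limma-voom.

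Promoter windows from RefSeq, reaching from 250 bases before to 50 bases after an annotated start on GRCh38.p14, were matched by symbol for 8 of the 10 genes. C3 and C1QC had no entry. The windows below are those of CFP, which rose, of C1QA, whose windows overlap, and C1QB, neighbouring C1q genes with unlike counts, and 1 of the windows of CD59, whose counts were near 0. Capitals mark matches to 5 motifs on either strand: AP-1 as TGANTCA, PU.1 as GAGGAAGT, C/EBP as TTGCNNAA, NF-kB as GGGANNTTC and EGR as GCGTGGGCG.
CFP, chrX:47629881-47630180, minus strand: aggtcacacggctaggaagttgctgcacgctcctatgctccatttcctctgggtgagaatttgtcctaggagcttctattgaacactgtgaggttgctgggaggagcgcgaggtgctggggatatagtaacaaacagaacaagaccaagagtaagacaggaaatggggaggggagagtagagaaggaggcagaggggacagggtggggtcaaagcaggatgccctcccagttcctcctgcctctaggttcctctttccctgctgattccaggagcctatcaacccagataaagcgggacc
CFP, chrX:47630256-47630555, minus strand: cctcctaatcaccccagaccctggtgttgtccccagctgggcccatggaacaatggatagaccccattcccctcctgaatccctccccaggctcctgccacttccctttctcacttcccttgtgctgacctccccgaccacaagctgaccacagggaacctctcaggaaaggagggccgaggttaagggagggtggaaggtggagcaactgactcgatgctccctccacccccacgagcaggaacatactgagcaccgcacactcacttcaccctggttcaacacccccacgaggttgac
C1QA, chr1:22636213-22636512, plus strand: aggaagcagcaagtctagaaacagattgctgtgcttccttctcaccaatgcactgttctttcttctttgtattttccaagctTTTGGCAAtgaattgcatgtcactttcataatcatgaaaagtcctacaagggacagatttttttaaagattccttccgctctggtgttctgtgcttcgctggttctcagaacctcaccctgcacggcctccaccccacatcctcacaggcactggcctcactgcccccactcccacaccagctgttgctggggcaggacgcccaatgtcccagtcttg
C1QA, chr1:22636378-22636677, plus strand: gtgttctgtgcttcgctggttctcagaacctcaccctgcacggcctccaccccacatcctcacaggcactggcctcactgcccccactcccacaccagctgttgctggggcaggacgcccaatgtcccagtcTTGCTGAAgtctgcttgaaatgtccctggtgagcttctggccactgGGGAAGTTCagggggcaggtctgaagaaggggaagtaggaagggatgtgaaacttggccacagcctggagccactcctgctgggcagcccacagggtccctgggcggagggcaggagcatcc
C1QB, chr1:22652986-22653285, plus strand: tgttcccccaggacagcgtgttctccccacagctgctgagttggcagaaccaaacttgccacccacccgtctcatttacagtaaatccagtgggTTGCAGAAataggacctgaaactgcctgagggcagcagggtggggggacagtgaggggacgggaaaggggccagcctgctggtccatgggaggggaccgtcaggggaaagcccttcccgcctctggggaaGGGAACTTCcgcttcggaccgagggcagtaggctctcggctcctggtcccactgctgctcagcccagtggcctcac
CD59, chr11:33722678-33722977, minus strand: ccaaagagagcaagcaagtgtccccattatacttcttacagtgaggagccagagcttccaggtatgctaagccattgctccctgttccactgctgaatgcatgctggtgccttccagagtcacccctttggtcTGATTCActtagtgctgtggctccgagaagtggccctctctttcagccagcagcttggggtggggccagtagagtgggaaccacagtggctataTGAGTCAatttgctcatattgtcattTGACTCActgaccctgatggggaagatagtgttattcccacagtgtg

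Neither CFP window held any of the 5 motifs. The first C1QA window held 1 match to the C/EBP letters. The second C1QA window and the C1QB window each held 1 C/EBP and 1 NF-kB match, which do not overlap, so both genes had both motifs. The CD59 window shown held 3 AP-1 matches, and no other CD59 window held AP-1. Over all 14 windows of the 8 genes, some of which overlap, 4 held C/EBP letters, 2 held NF-kB, 1 held AP-1, and none held PU.1 or EGR. Among all 35116 windows in the table the shares were 10.5% for C/EBP, 7.71% for AP-1, 4.18% for NF-kB, 2.59% for PU.1 and 0.795% for EGR. These matches describe letters and were not tested for binding.

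Depth was 35739833 counts in lot 1 and 50822971 in lot 2 with PMA, and 54915928 in lot 1 and 41308603 in lot 2 without. Levels below are normalised CPM, the usual depth-scaled count, with library sizes adjusted by TMM factors. The labelled cell type was checked with 8 myeloid markers, which were above 0 in every library. Their summed level was 3561 and 4284 CPM with PMA, against 1129 and 1925 CPM without. Of the 8, FCER1G alone rose, and FCER1G with TYROBP made up 1986 and 2834 CPM of the sum with PMA, against 48.0 and 193 CPM without. The other 6 summed to 1575 and 1450 CPM with PMA, against 1081 and 1732 CPM without, so the groups overlapped in this sum. LYZ made up 905 CPM of it in the untreated library of lot 2, against 136 CPM in that of lot 1. FCER1G, TYROBP, SPI1 and CD4 had both PMA libraries above both untreated ones, as did 31.0% of all genes tested. TYROBP had a log2 change of 4.74 ± 1.11 (SE) but did not pass (adjusted p = 0.0704 by edgeR). PTPRC, CD33, CEBPA and LYZ overlapped between groups. Of 8 hepatocyte markers, 7 were at 0 in all libraries and the sum was at most 0.476 CPM. Of 6 mature monocyte or macrophage markers, MRC1 and MSR1 were at 0 in all libraries, those with PMA included. Of the 4 tested, 3 rose, beside 4.29% of all genes tested. Of these 3, CD14 and CD163 were at 0 in both untreated libraries, so the filter fixed their direction. CSF1R had 667 and 332 CPM with PMA, against 0 and 1.74 CPM without, but did not pass (adjusted p = 0.0657 by edgeR). The sum over the 6 markers was 1578 and 955 CPM with PMA, against 51.2 and 90.8 CPM without. The part of this shift in the results for complement genes was not tested. All 5 endothelial markers and 5 of 6 fibroblast markers were at 0 throughout. Of 8 lymphocyte markers, 5 were at 0 throughout, and the sum was 11.3 and 13.5 CPM with PMA, against 26.6 and 17.6 CPM without.

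C3 (ENSG00000125730.17), the central component that all activation routes cleave, had 275.9 CPM in lot 1 and 448 CPM in lot 2 with PMA, against 1.30 and 1.16 CPM without, lot 1 first here and throughout. These stand for 8990 and 20728 counts with PMA and 82 and 50 counts without. The groups lay far apart, and the untreated libraries differed little from each other. By level, C3 took place 663 and 327 among all genes in the PMA libraries, against 12485 and 12665 in the untreated ones. It rose by 8.20 ± 0.50 on the log2 scale (SE, n = 2 libraries per group, adjusted p = 0.0148 by edgeR), with 7.73 in lot 1 and 8.60 in lot 2. The C3 gene overlaps 649 bases of GPR108 on the same strand in GENCODE release 29, and GPR108 had 8486 and 15741 counts with PMA and 6453 and 4600 without.

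CFP (ENSG00000126759.13) encodes properdin, the only known positive regulator of the cascade, which holds the alternative convertase together. It had 61.4 and 98.7 CPM in the PMA libraries, against 0.823 and 1.37 CPM in the untreated libraries. The fold was close to the same in both lots, 74.7 in lot 1 and 72.2 in lot 2. The fitted log2 change was 6.20 ± 0.57 (SE, n = 2 per group, adjusted p = 0.0202 by edgeR). A transcript on the same strand, listed as Z84466.1, overlaps 338 bases of CFP and had 0 counts in both PMA libraries, against 211 and 345 in the untreated ones. Reads of the overlap cannot be told apart by gene.

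CFD (ENSG00000197766.8) encodes factor D, the serine protease that cuts factor B in the alternative convertase. It had 48.7 and 104 CPM with PMA, against 27.3 and 31.5 CPM without. The PMA libraries differed from each other by more than the lot 1 PMA library differed from either untreated one. Its log2 change was 1.38 ± 0.48 (SE, adjusted p = 0.149 by edgeR), with 0.84 in lot 1 and 1.73 in lot 2. It passed with DESeq2 (adjusted p = 0.0387) and with no other alternative, over which its adjusted p reached 0.766.

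CFB (ENSG00000243649.9) encodes factor B, the protease that forms the alternative convertase with C3b. It was listed at 0 in all 4 libraries, which allows up to 0.0921 and 0.0649 CPM with PMA and 0.0475 and 0.0695 CPM without, at 3 counts per library and for counting error only. A readthrough gene of C2 and CFB, AL645922.1, overlaps 6399 bases of CFB on the same strand and had 0 counts in both PMA libraries, against 35 and 15 in the untreated ones. C2, its neighbour and the classical pathway counterpart of factor B, had counts in every library and is described below. A listed 0 can be a failed estimate, so no absence of CFB RNA is shown.

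Between genes, levels were compared per kilobase of the longest protein-coding transcript in GENCODE release 29. On that scale C3 had 52.4 and 85.2 CPM per kb with PMA, CFD 40.5 and 86.6, and CFP 35.9 and 57.6, so the ranges of these genes overlapped. In untreated cells CFD had 22.7 and 26.2 CPM per kb, while C3 had 0.247 and 0.220 and CFP 0.480 and 0.798. Among all 10 genes the order of mean levels per kb with PMA was CD46 (80.7), C3 (68.8), CFD (63.6), CFP (46.7), CD55 (42.4), C1QA (19.0), C1QC (15.0) and CD59 (0.0281), with C1QB and CFB at 0. In this order only CD55 and C1QA, and C1QC and CD59, were neighbours above 0 whose 2 PMA libraries did not overlap. In untreated cells the order was CD46 (36.0), CFD (24.5), CD55 (11.4), C1QA (0.730), CFP (0.639), C3 (0.233), C1QB (0.129) and CD59 (0.00152), with C1QC and CFB at 0. Here the untreated libraries of neighbours overlapped except between CFD and CD55, CD55 and C1QA, and CFP and C3. The ratio of C3 to CFD per kb was 1.29 and 0.984 with PMA, against 0.0108 and 0.00841 without. The ratio of C3 to CFP per kb was 1.46 and 1.48 with PMA, against 0.513 and 0.276 without.

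**Figure D1:**
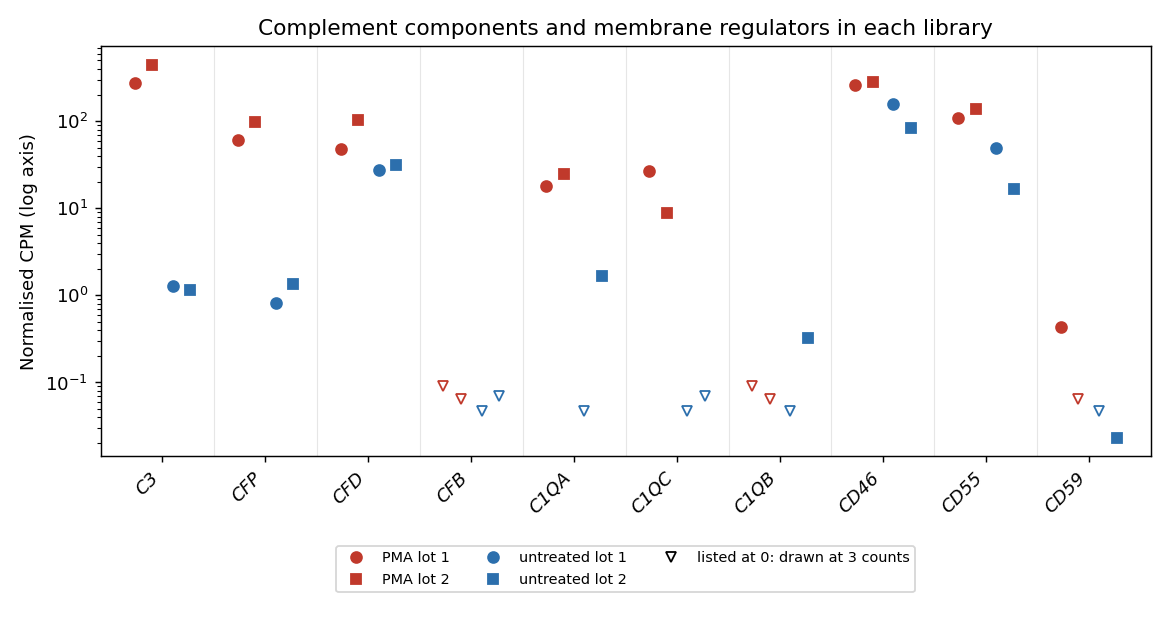
Normalised CPM (log axis) of the 10 genes in each library, PMA in red and untreated in blue, circles for lot 1 and squares for lot 2, with open triangles at the level of 3 counts for genes listed at 0. C3 and CFP stand far above their untreated libraries, C1QC is listed at 0 without PMA, and CFB is listed at 0 throughout.

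The C1q chains were not detected alike, although the 3 genes lie side by side in the order C1QA, C1QC, C1QB and the proteins are assembled in equal amounts. C1QC (ENSG00000159189.12) had 26.7 and 8.87 CPM with PMA, from 870 and 410 counts, and was at 0 in both untreated libraries. The lot 1 PMA library had the higher level, and neither came near the untreated floor. Against a floor of 3 counts per untreated library, C1QC rose at least 562-fold in lot 1 and at least 128-fold in lot 2. Over the group means it rose at least 304-fold (adjusted p = 0.0307 by edgeR). These bounds allow for counting error only, since a listed 0 can be a failed estimate. C1QC entered the test through its PMA libraries alone, so it could only come out higher.

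C1QA (ENSG00000173372.17) had 18.3 and 25.1 CPM with PMA, from 595 and 1162 counts, against 0 and 1.67 CPM in the untreated libraries, where lot 2 alone had counts (72). The groups did not overlap, but the untreated libraries disagreed. The log2 change was 4.72 ± 1.95 (SE, adjusted p = 0.206 by edgeR, and 0.279 with DESeq2). In lot 2 it was 15.1-fold higher with PMA, and in lot 1 at least 385-fold, for counting error only. Without the untreated library of lot 1 it passed (adjusted p = 0.0260, log2 change 3.64), and without that of lot 2 it also passed (adjusted p = 0.0155). In that fit the remaining untreated library was at 0, and the fitted log2 change of 13.00 is no bound.

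C1QB (ENSG00000173369.16) had 0 counts in both PMA libraries, against 0 and 14 counts in the untreated ones (0.325 CPM in lot 2). Whether the authors' estimation lost counts of C1QB is not known. In the same PMA libraries its neighbours had 410 to 1162 counts. Per kb, C1QC had 22.6 and 7.50 CPM with PMA and C1QA had 16.0 and 22.0, while C1QB was listed at 0. The ratio of C1QC to C1QA per kb was 1.41 in lot 1 and 0.341 in lot 2, so the order of these chains turned between the lots.

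The membrane regulators CD46 and CD55 were detected in every library. CD46 (ENSG00000117335.19) had 259.7 and 284 CPM with PMA, against 159 and 83.3 CPM without. CD55 (ENSG00000196352.15) had 108 and 137 CPM with PMA, against 49.0 and 16.9 CPM without. Both were lowest in the untreated library of lot 2, and neither overlapped between groups. The log2 change of CD46 was 1.16 ± 0.41 (SE, adjusted p = 0.155 by edgeR), with 0.70 in lot 1 and 1.77 in lot 2. That of CD55 was 1.90 ± 0.59 (adjusted p = 0.118), with 1.14 in lot 1 and 3.02 in lot 2. Without the untreated library of lot 2 the log2 changes of CD46 and CD55 were 0.77 and 1.32 (adjusted p = 0.195 and 0.0903 by edgeR).

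Both passed with DESeq2, CD46 at an adjusted p of 0.0407 and CD55 at 0.00797. Both also passed without the untreated library of lot 1, at 0.0349 and 0.0201, with log2 changes of 1.64 and 2.80. Over all alternatives the adjusted p reached 0.557 for CD46 and 0.402 for CD55. Per kb, the ratio of CD46 to CD55 was 2.06 and 1.78 with PMA, against 2.79 and 4.24 without, so CD46 was the more abundant RNA in every library. CD59 (ENSG00000085063.16), the inhibitor of the terminal complex, had 14 and 0 counts with PMA, against 0 and 1 without, and was listed at or below 0.430 CPM throughout. These values set no upper limit on CD59 RNA, since counts may have been lost in the authors' estimation. The CD59 row overlaps another protein-coding entry, AL049629.2, which was at 0 in all libraries.

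**Figure D2:**
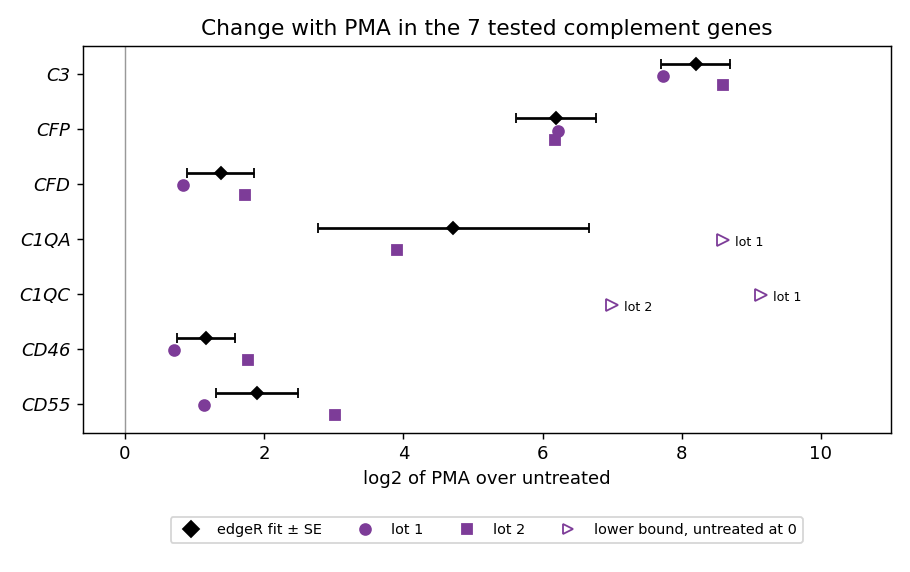
Log2 of PMA over untreated for the 7 tested genes, with lot 1 as circles and lot 2 as squares. Diamonds give the edgeR value and its SE for all of these genes but C1QC, for which none is drawn. Open triangles are lower bounds, for counting error only, where the untreated library was at 0. C3 and CFP lie near 8.20 and 6.20, while CFD, CD46 and CD55 lie between 0.70 and 3.02.

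All 7 tested genes had both PMA libraries above both untreated ones, as did 31.0% of the 16451 genes tested. C1QC passed the filter through its PMA libraries alone, so its direction was fixed by the filter, and for C1QA only 1 untreated library had counts. The median log2 change over the 7 was 4.72, against 0.00 over all genes tested, and is the value of C1QA, which ran from 3.64 to 13.00 over the alternatives. C1QA stays the median when C1QC is set at its lower bound. The authors' deposited table, whose test is not stated, called the same 3 genes: C3 (log2 ratio 8.20, q = 4.98e-20), CFP (6.19, q = 9.75e-08) and C1QC (11.1, q = 8.45e-07). The authors' deposited table called 1.48% of its 60662 rows higher and 0.742% lower. In the authors' deposited table CD55 had q = 0.274, C1QA q = 0.259, CD46 q = 0.858 and CFD q = 0.901.

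**Figure D3:**
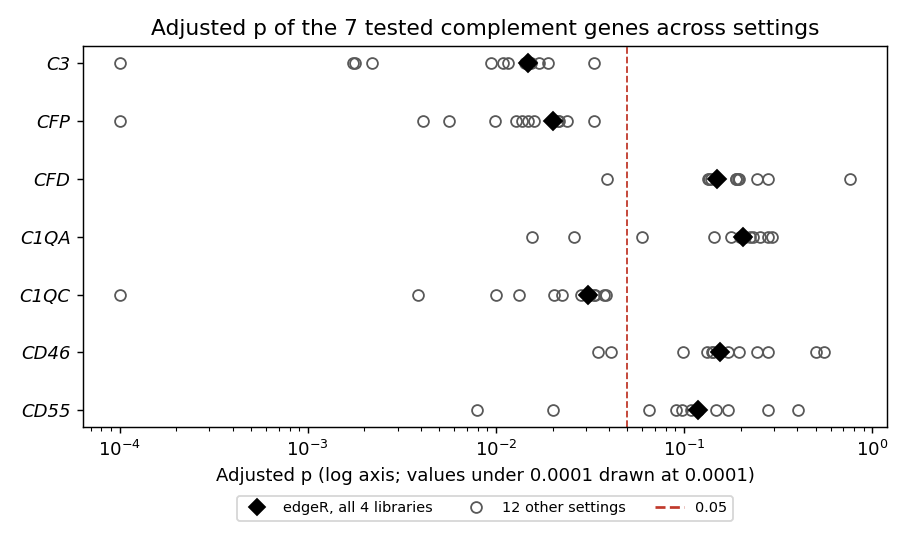
Adjusted p (log axis) of the 7 tested genes with edgeR on all 4 libraries (diamonds) and in 12 other settings (open circles), with values under 0.0001 drawn at 0.0001 and a dashed line at 0.05. C3, CFP and C1QC stay left of the line, with highest values of 0.0333, 0.0333 and 0.0387, and the other 4 genes fall on both sides.

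Of 46 other complement genes, 23 were at 0 in all libraries, and 16 passed the filter. Of these 16, 8 rose and 0 fell by edgeR, beside the 4.29% and 2.02% of all genes. At an unadjusted p under 0.05 by edgeR 2 were lower, where 4445 of the 16451 genes tested passed in either direction. With DESeq2 2 were lower, beside 10.3% of all genes tested. Of 9 receptor genes tested, 7 rose and 0 fell. VSIG4, counted among them, was at 0 in both untreated libraries, so the filter fixed its direction. Among initiation genes of the classical and lectin pathways 1 of 3 tested rose, and of 2 terminal pathway genes and 2 soluble regulators tested none passed. With the lot as a block, 5 of the 8 passed, while C2, C3AR1 and C5AR1 did not. In that fit 591 of the 16451 genes tested were higher.

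The receptors for the cleavage fragments of C3 and C5 rose. C5AR1, the main receptor of the anaphylatoxin C5a, had 796 and 425 CPM with PMA, against 1.31 and 9.16 CPM without, a log2 change of 6.87 ± 1.16 (SE, adjusted p = 0.0399 by edgeR, and 0.0557 with the lot as a block). The second C5a receptor, C5AR2, had 612 and 207 CPM with PMA, against 0.870 and 1.97 CPM without (8.18 ± 0.90, adjusted p = 0.0236). C3AR1, the C3a receptor, had 120 and 89.9 CPM with PMA, against 1.09 and 5.70 CPM without (4.95 ± 0.92, adjusted p = 0.0482). The call of C3AR1 was lost with RLE factors (0.0514), upper-quartile factors (0.0570), the lot as a block (0.0563) and against a fold of 1.5 (0.0559). Leaving out 1 library moved their folds by over 1.5 times. Without the untreated library of lot 1 the log2 changes of C5AR1 and C3AR1 were 6.00 and 4.14, and without that of lot 2 those of C5AR1, C5AR2 and C3AR1 were 8.86, 8.88 and 6.58. Without the PMA library of lot 1 those of C5AR1 and C5AR2 were 6.28 and 7.12, and without that of lot 2 that of C5AR2 was 8.77. In all of these receptors the untreated library of lot 2 was above that of lot 1, and the PMA library of lot 1 above that of lot 2.

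Receptors for C3 fragments on particles did not all pass the test. VSIG4, the complement receptor of tissue macrophages, had 204 and 186 CPM with PMA and 0 counts in both untreated libraries. For counting error only, it was at least 3333-fold higher over the group means (adjusted p = 0.0148 by edgeR). ITGAM and ITGAX, the alpha chains of complement receptors 3 and 4, had 461 and 319.6 CPM and 1908 and 2705 CPM with PMA, against 4.84 and 9.55 CPM and 12.5 and 12.6 CPM without, with log2 changes of 5.76 ± 0.55 and 7.53 ± 0.41 (SE, adjusted p = 0.0206 and 0.0148 by edgeR). ITGB2, their shared beta chain, rose by 3.59 ± 0.28 (adjusted p = 0.0161). CR1, the C3b and C4b receptor, had 10.5 and 3.61 CPM with PMA, against 14.6 and 0.255 CPM without, and did not pass (adjusted p = 0.982). CD93, once described as a C1q receptor, had 925 and 524 CPM with PMA, against 547 and 275 CPM without (adjusted p = 0.361).

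Of the soluble components, C2, the protease of the classical convertase, had 14.0 and 15.1 CPM with PMA, against 2.12 and 2.20 CPM without (2.75 ± 0.50, adjusted p = 0.0464 by edgeR). Its libraries agreed closely within groups, with 2.72 in lot 1 and 2.77 in lot 2, but the adjusted p ran from 4.87e-06 with DESeq2 to 0.179 and the call was lost in 8 of 13 alternatives. FCN1, the lectin pathway sensor ficolin-1 of monocytes, had 6.78 and 2.44 CPM with PMA, against 17.4 and 30.9 CPM without (adjusted p = 0.103). CLU, the fluid-phase inhibitor clusterin, had 26.1 and 89.9 CPM with PMA, against 184 and 172 CPM without (adjusted p = 0.185). C8G, the gamma chain of C8, had 4.14 and 2.68 CPM with PMA, against 8.18 and 11.3 CPM without (adjusted p = 0.171). FCN1 and CLU passed as lower with DESeq2 alone, at adjusted p = 0.00706 and 0.0448.

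CFI, which encodes the protease factor I that cuts C3b, had 1 count in 1 untreated library and 0 in the others. It belongs to 32 genes of the wider list that did not reach 10 CPM or pass the test, of which the highest value in any library was 1.95 CPM. Among the terminal components, C5 had counts in lot 1 alone, 2.03 CPM with PMA and 10.8 CPM without.

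**Figure D4:**
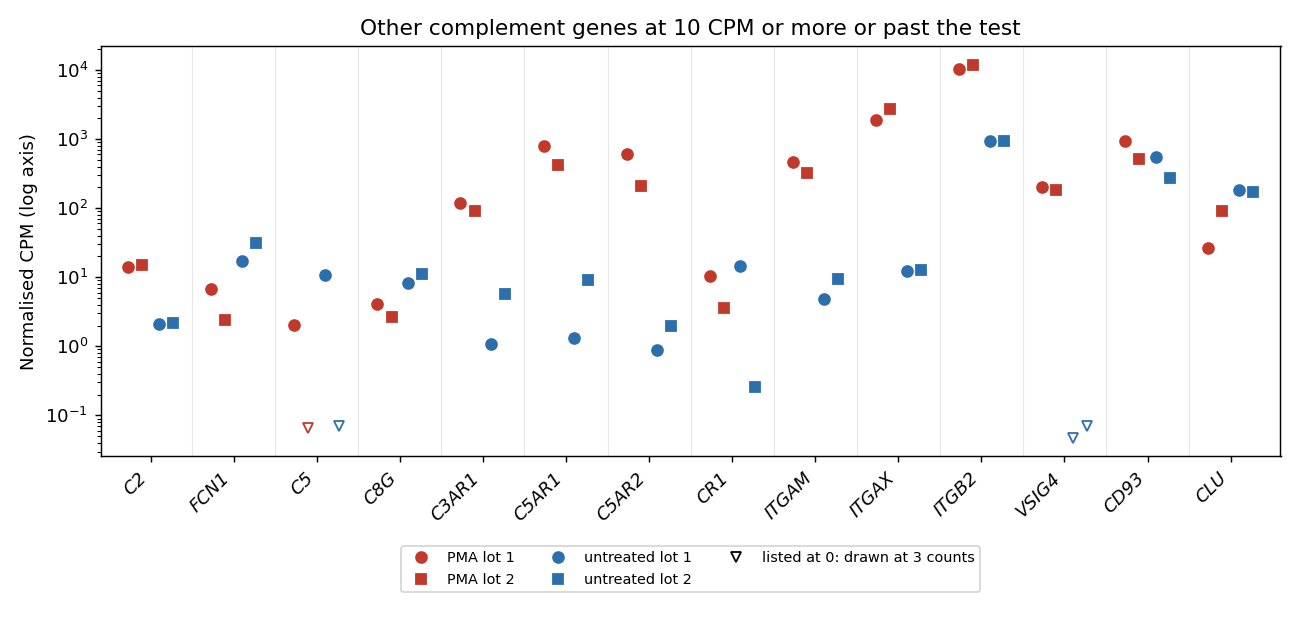
Normalised CPM (log axis) of the 14 other complement genes that passed the test or reached 10 CPM in a library, drawn as in the plot of the 10 genes. The receptors C3AR1, C5AR1, C5AR2, ITGAM, ITGAX, ITGB2 and VSIG4 are higher with PMA, and FCN1, C8G and CLU have lower levels in both PMA libraries without passing the test. Of all 16451 genes tested, 29.4% had both PMA libraries below both untreated ones.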

How the data were processed

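Per the labels' protocols, poly(A) RNA of U937 cells was made into libraries with an Ion Total RNA-Seq kit. HISAT2 2.1.0 and StringTie 2.1.1 appear, without roles, in the submitters' processing notes. Not given in the sources used here are the build, annotation, counter and strand setting, so overlapping genes are uncertain. The authors deposited 1 table of estimated counts per gene, not scaled, in which all values were whole, and 1 table with a signal (the count times a factor per library), a rank score, a log2 ratio and mean level, and a p-value and q-value. Gene lengths came from GENCODE release 29, matched by ID for 58489 of 60662 rows.

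Counts were tested with edgeR 4.0.16 in R 4.3.3 (TMM factors, filterByExpr by group, quasi-likelihood test, Benjamini-Hochberg at 0.05) with 4 libraries and no block. The test was checked on simulated data. With 2 libraries per group, a gene that did not pass is not shown to be unchanged. Each standard error is the log2 fold change divided by the root of F. Folds against libraries at 0 are lower bounds against 3 counts per library, for counting error only, since a listed 0 can be a failed estimate. Lots pair the libraries by label, and same-lot deviations from the group means had a correlation of 0.154. The labels do not say whether the lots are separate cultures, so the p-values rest on a spread that may be technical. An exact permutation test of 2 against 2 libraries cannot go below 0.333. Alternatives were RLE and upper-quartile factors, no filter, 1 CPM in 2 libraries, DESeq2 1.42.0, limma-voom (limma 3.58.1), the lot as a block, a fold of 1.5, an adjusted p under 0.01, and leaving out each library. The genes, the wider list of 46 complement genes and the marker lists were chosen with earlier results of these data known. All 10 genes are named, and of the wider list each gene past the threshold or at 10 CPM or more in a library.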

Additional observations from a re-analysis of the deposited data

Results flagged for a closer look

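CR1, which encodes the C3b and C4b receptor, moved in opposite directions in the lots. Its log2 of PMA over untreated was −0.47 in lot 1 and 3.82 in lot 2, from 343 and 167 counts with PMA and 923 and 11 counts without. With 1 library per group in each lot, this difference was not tested.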

How the results depend on the processing

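The calls of C3, CFP and C1QC as higher held in 12 of 13 alternatives and were lost at an adjusted p under 0.01, where no gene at all was called, since the smallest adjusted p was 0.0148 (4445 genes had an unadjusted p under 0.05). Upper-quartile factors moved the median log2 change of all genes to −0.17, and no tested gene among the 10 changed direction in any alternative. The 10 genes held 6 higher with DESeq2 and 3 to 6 on leaving out each library, and 0 at an adjusted p under 0.01. The other complement genes held 5 higher with the lot as a block (replicate block) and 0 at an adjusted p under 0.01, and 2 lower with DESeq2. Of all genes, 2136 were higher and 1698 lower with DESeq2, 1149 and 636 with limma-voom, and 424 to 1830 and 79 to 1085 on leaving out each library. With 1 CPM in 2 libraries 619 were lower, against a fold of 1.5 217 were lower, and at an adjusted p under 0.01 it was 0 in both directions. With the block, 591 were higher and 244 lower, and the block changed the calls of C2 (adjusted p = 0.0675), C3AR1 and C5AR1 and of no other named gene. C2 was also lost with upper-quartile factors, no filter, a fold of 1.5 and on leaving out 3 of the libraries. On leaving out each library the log2 change of C5 ran from −11.12 to 8.35 and that of CR1 from −1.10 to 4.72. CR1 also reversed with limma-voom (1.25) and with the block (1.55). The cause was not tested. Leaving out a library leaves 1 in its group, which is assumed to vary like the others. Counts under 100, as for C3 and CFP without PMA, limit the size of their folds more than their direction.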

Other observations

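Several complement genes outside the named set had counts in a single library and 0 in the others. C4B, which is nearly identical to C4A, had 84 counts in the untreated library of lot 2. C8B had 113 and MASP2 had 40 counts in the untreated library of lot 1. SERPING1, the C1 inhibitor, had 90 counts in the PMA library of lot 2. The genes of the C1 proteases, C1R and C1S, both had counts in the PMA library of lot 2 (53 and 8) and the untreated library of lot 1 (86 and 17), and 0 in the other libraries.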
